A study of Mus musculus with 66 samples.

Results

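The axon guidance ligands and receptors comprise the semaphorins, plexins, neuropilins, Slits, Robos, ephrins, Eph receptors, netrins and netrin receptors. They were chosen by gene symbol alone: any symbol beginning with Sema3 to Sema7, Plxna to Plxnd, Epha, Ephb, Efna or Efnb, and the genes Nrp1, Nrp2, Robo1 to Robo4, Slit1 to Slit3, Ntn1 to Ntn5, Dcc and Unc5a to Unc5d. Of 30084 symbols in the count table, 69 matched. Of these, 68 are protein-coding genes. The other, Plxna4os1, is an antisense transcript with 0 reads in all 66 libraries and is no receptor. Filtering on low counts left 66 of the 69 genes in the tests. The genes not tested were Ntn5 (at most 7 reads in any library), Plxnb3 (at most 4) and Plxna4os1.

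The libraries measured polyadenylated RNA from cultured neurons of e16.5 wildtype mouse embryos, with male and female cultures kept apart. Lentiviral short hairpin RNA (shRNA), a means of reducing one chosen mRNA, was directed at Tbr1, Setd5, Med13l, Mbd5, Kmt2c, Kdm6b, Dnmt3a, Chd8 or Ash1l. Controls received a nontargeting shRNA or no virus. The series asks whether depletion of these regulators of chromatin and transcription changes the same genes, and whether males and females respond alike. Each of the 11 conditions had 3 libraries per sex, all of WT genotype, with no strain, brain region or pooling of embryos given in the labels. Cultures were freed of virus after 6 days and harvested after 10. The labels do not say whether the 3 libraries of a group came from separate cultures or litters, so p-values measure the spread between these libraries, which may be technical.

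A growing axon is steered by extracellular cues that its growth cone reads through surface receptors. Semaphorins signal through plexins, and the secreted Sema3 proteins mostly need a neuropilin as co-receptor. Slits repel axons through Robos, netrins attract through Dcc and repel through Unc5 receptors, and ephrins, which are themselves tethered to cell membranes, signal through Eph receptor tyrosine kinases at cell contacts. In the developing cortex the same molecules also guide migrating neurons, dendrites and synapse formation.

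Total counts ranged from 13759741 to 66558546 per library. The targeted mRNA averaged between 22.3% and 54.3% of its nontargeting level over the 18 knockdown comparisons and passed the test in 15 of them. It missed the threshold for Kdm6b (both sexes) and for Setd5 (males). The libraries labelled Setd5 male replicate 1 and Kdm6b male replicate 1 went against their labels. Setd5 mRNA was at 141 CPM (counts scaled to one common library total) in the former against 42.9 and 42.7 in the other male Setd5 libraries and 133 to 149 in nontargeting males, and at 44.9 CPM in the latter. Kdm6b mRNA was at 23.1 CPM in the library labelled Setd5 male replicate 1 and at 39.9 in the library labelled Kdm6b male replicate 1, where the other male Kdm6b libraries both had 17.2. The library labelled Setd5 female replicate 1 held 612 reads of the Y-linked gene Ddx3y, against at most 12 in the other female libraries and at least 1690 in male libraries. Of Eif2s3y, also Y-linked, it held 24 reads, against at most 6 in other female and at least 1261 in male libraries. Its Xist count was 63232, against 14486 to 61717 in other female and at most 72 in male libraries. Neuron markers (Tubb3, Rbfox3, Map2, Snap25 and Syt1) summed to between 3560 and 6020 CPM, and those of excitatory and GABAergic neurons to between 587 and 1180 and between 545 and 1730 CPM. Astrocyte markers summed to between 41.2 and 305, mural and fibroblast markers to between 17.7 and 80.1, and microglial and endothelial markers to at most 3.87 and 4.43 CPM, over all 66 libraries. In such mixed cultures fewer cells of a type and less RNA per cell cannot be told apart.

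Most of the guidance genes were expressed. Divided by exon length to compare genes, 20 had a mean of at least 10 CPM per kb over all libraries, and 10 of the 66 tested genes were under 1 CPM per kb. The most abundant was Efnb3, a transmembrane ephrin, at 103 ± 12.1 CPM per kb in male and 107 ± 19.0 in female nontargeting libraries (SD, n = 3 each). Its libraries held 299, 372 and 314 CPM in males and 395, 276 and 354 in females, before division by length. The next gene of its class was Efnb2, at 27.2 ± 1.75 and 26.7 ± 5.42 CPM per kb. Among semaphorins Sema7a, which is anchored in the membrane by a lipid, had the highest mean over all libraries at 37.0 CPM per kb. Its libraries held 105, 101 and 141 CPM in males and 55.8, 146 and 106 in females. Sema7a and the next semaphorin, Sema6b, overlapped in female nontargeting libraries, at 31.1 ± 13.6 and 25.0 ± 4.11 CPM per kb.

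Plxnd1, the receptor for Sema3e, led the plexins at 33.6 ± 4.28 CPM per kb in males and 33.3 ± 8.51 in females, from 213, 249 and 275 CPM and from 172, 277 and 281 CPM. It overlapped the next plexin, Plxna1, at 27.3 ± 2.01 and 23.8 ± 4.95 CPM per kb, in females. Nrp2, at 13.4 ± 1.36 and 12.5 ± 0.919 CPM per kb, exceeded Nrp1, at 5.48 ± 0.15 and 5.45 ± 1.72. Both encode co-receptors of secreted semaphorins, and Nrp2 had 169, 167 and 140 CPM in males and 160, 146 and 138 in females. Robo2 (24.0 ± 2.59 and 21.0 ± 8.89 CPM per kb) was above Robo1 (7.11 ± 0.524 and 6.28 ± 1.16), and Slit1 (18.2 ± 0.643 and 17.5 ± 4.88) above Slit2 (5.74 ± 0.723 and 5.17 ± 2.99). Robo3, which modulates midline crossing, and Robo4, a receptor of blood vessels, averaged 0.197 and 0.0295 CPM per kb over all libraries. Robo2 libraries held 419, 360 and 446 CPM in males and 266, 531 and 273 in females, and Slit1 libraries 105, 107 and 112 and 76.2, 134 and 101.

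Efna3 led the A ephrins at 18.2 ± 2.99 CPM per kb in males and 20.3 ± 5.58 in females, from 41.5, 52.4 and 38.6 CPM and from 56.3, 33.9 and 58.4 CPM. Epha5, a receptor for A ephrins, led its class at 21.1 ± 1.24 and 21.9 ± 2.59, with the next, Epha10, at 8.25 ± 1.0 and 7.96 ± 0.906 CPM per kb. Ephb6, an Eph protein without kinase activity, led the Eph B class at 19.2 ± 2.60 and 18.9 ± 4.01, from 63.2, 71.5 and 82.8 CPM and from 55.6, 73.3 and 85.6 CPM. Netrins were low: Ntn1 had 3.11 ± 1.08 and 2.22 ± 1.59 CPM per kb, from 14.5, 27.3 and 16.8 CPM and from 25.4, 7.86 and 8.49 CPM, and Ntn4 had 1.94 ± 0.212 and 1.31 ± 0.0765. Their receptors were higher, led by Unc5d at 12.2 ± 1.44 and 10.7 ± 3.20 CPM per kb. Unc5d and Unc5a (9.12 ± 1.44 and 9.52 ± 2.08) overlapped in females.

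**Figure D1:**
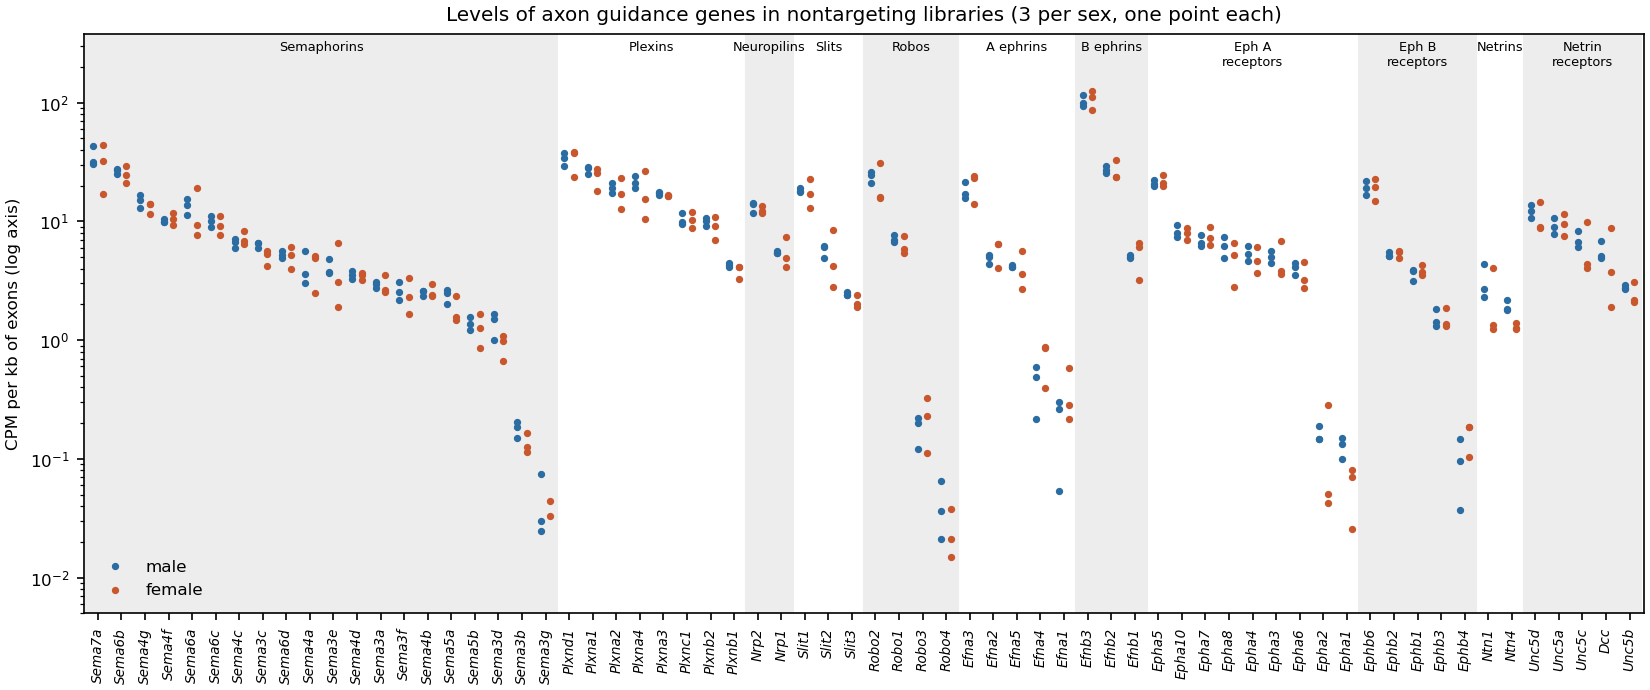
Levels of the 66 tested genes in the nontargeting libraries, in CPM per kb of exons on a log axis, with one point per library, 3 per sex, and genes ordered by mean level within each family; a value of 0 is not drawn. Efnb3 sits at about 100 CPM per kb, while Sema3g, Robo4 and Epha1 lie below 0.2.

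The genes called in both sexes after the same shRNA, with an adjusted p under 0.05, were Ntn4, Epha5, Unc5d, Ephb2 and Efna5. The regulatory sequence is shown for 3 of them, so that Chd8, Ash1l and Med13l shRNA are each represented: Ntn4, which encodes a secreted netrin, with Chd8 and Ash1l, Epha5 with Ash1l, and Efna5, which encodes an A ephrin, with Med13l. Each stretch is the RefSeq promoter window of build GRCm38.p6, 250 bases before to 50 after the annotated start, 5′ to 3′ along the gene. In GENCODE M21, on GRCm38, the genes span chromosome 10 from 93640681 to 93747207 (Ntn4), chromosome 5 from 84054761 to 84417382 (Epha5) and chromosome 17 from 62604184 to 62881317 (Efna5). The Ntn4 window is at chr10:93640799-93641098 on the plus strand, Epha5 at chr5:84417333-84417632 on the minus strand and Efna5 at chr17:62881268-62881567 on the minus strand. Capitals mark GC boxes (GGGCGG or CCGCCC) and, in Epha5 only, 1 T-box half-site (TCACAC).
Ntn4: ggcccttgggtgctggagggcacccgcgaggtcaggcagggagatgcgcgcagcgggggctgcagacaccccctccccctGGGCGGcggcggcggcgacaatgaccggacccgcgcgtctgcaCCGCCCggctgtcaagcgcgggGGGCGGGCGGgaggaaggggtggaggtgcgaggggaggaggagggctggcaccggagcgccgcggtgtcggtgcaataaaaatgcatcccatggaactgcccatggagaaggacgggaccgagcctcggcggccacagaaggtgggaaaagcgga
Epha5: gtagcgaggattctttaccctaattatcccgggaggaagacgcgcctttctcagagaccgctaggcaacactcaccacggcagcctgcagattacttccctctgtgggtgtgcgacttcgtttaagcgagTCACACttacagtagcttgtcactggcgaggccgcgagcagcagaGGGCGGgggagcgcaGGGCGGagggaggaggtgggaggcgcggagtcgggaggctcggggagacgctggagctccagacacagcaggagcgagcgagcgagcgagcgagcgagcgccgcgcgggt
Efna5: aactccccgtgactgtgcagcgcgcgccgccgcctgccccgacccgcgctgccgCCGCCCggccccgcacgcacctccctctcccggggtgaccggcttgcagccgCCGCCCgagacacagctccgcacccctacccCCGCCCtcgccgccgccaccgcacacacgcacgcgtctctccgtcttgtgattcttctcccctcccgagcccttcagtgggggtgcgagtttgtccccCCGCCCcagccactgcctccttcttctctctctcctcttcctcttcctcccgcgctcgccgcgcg
Ntn4 and Efna5 each had 4 GC boxes, with 2 of those in Ntn4 overlapping, and Epha5 had 2. All 3 windows were rich in CpG, with 31, 30 and 38 CpG dinucleotides, where the median over all 32851 windows was 7.0. That richness was shared by the family, since the 74 windows that matched 58 of the 69 genes had a median of 19.5 CpG dinucleotides. A GC box was found in 70.3% of the guidance gene windows against 35.7% of all windows, on either strand. The T-box half-site occurred in 13.5% and 14.5%, the ETS core CGGAAG in 8.11% and 16.9%, and the TATA box TATAAA in 2.70% and 13.6%. Overlaps between different motifs were not searched for. A match describes letters in the window and does not show a bound site.

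Against the nontargeting libraries of the same sex, guidance genes were called 20 times over the 18 knockdown comparisons, where called means a Benjamini-Hochberg adjusted p under 0.05 in edgeR's quasi-likelihood test over 16145 genes. These calls fell on 13 genes, and 53 of the 66 tested genes were never called. The calls belonged to Chd8 (5 in males and 4 in females), Med13l (3 and 3), Ash1l (2 and 1) and Setd5 (2 in females). The share of all tested genes called was 9.82% in males and 9.33% in females for Chd8, 8.06% and 10.2% for Med13l, 1.98% and 1.1% for Ash1l and 0.0557% and 3.12% for Setd5. The guidance genes therefore lay at 7.58% and 6.06% for Chd8, 4.55% in each sex for Med13l, 3.03% and 1.52% for Ash1l and 3.03% for Setd5 in females, near or below the background. For the other 5 targets no guidance gene was called in males or females. Background there was 0.111% and 0.118% for Dnmt3a, 0.0867% and 0.0% for Kdm6b, 0.0867% and 0.0991% for Kmt2c, 0.0619% and 0.0557% for Mbd5, and 0.217% and 0.0619% for Tbr1. At an unadjusted p under 0.05 the edgeR test gave between 0 and 8 of the 66 guidance genes in each of these comparisons and 4 for Setd5 in males. The share of all genes under that limit is not given here, so these counts are no result about the guidance genes. By DESeq2 the number called was 0 in all of these comparisons except Kdm6b in males, where it was 1.

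**Figure D2:**
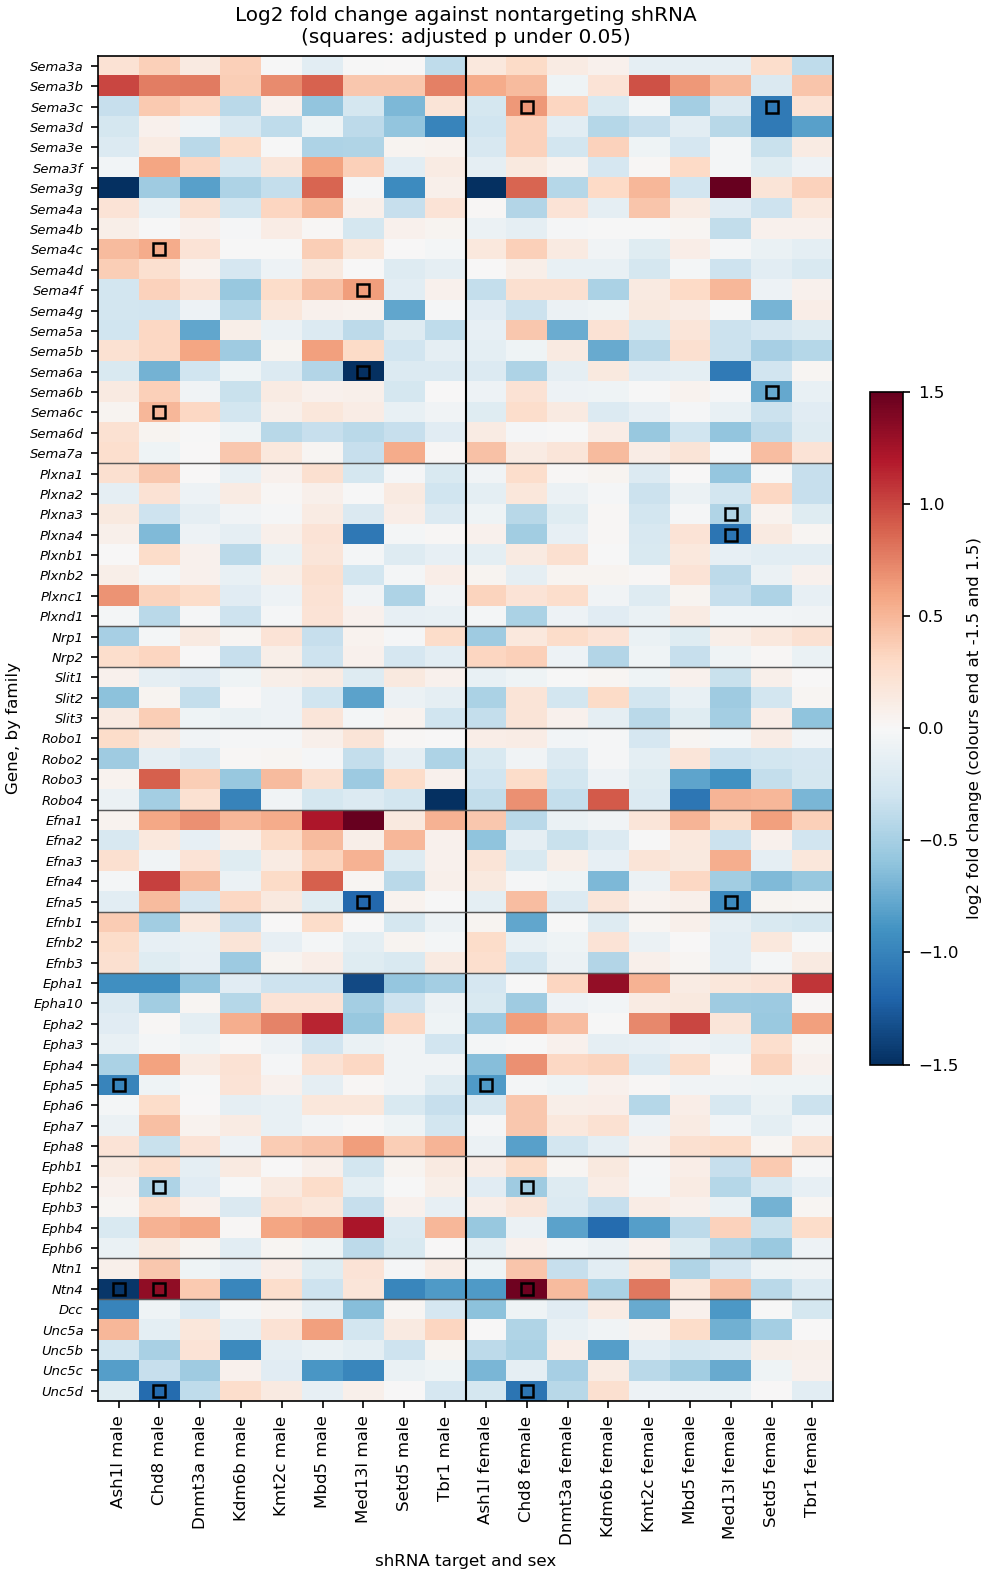
Log2 fold change of the 66 tested guidance genes (rows, by family) after each of the 9 shRNAs against nontargeting shRNA, males left and females right, with black squares at an adjusted p under 0.05. The 20 squares cluster in the Ash1l, Chd8, Med13l and female Setd5 columns, and Sema3g and Robo4, with few reads, reach dark colours without a call.

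Ntn4 had 3 calls, more than any other guidance gene, after Chd8 shRNA in both sexes and Ash1l shRNA in males. It encodes a netrin of basement membranes related to laminins. After Chd8 shRNA it was at 19.0, 17.4 and 18.4 CPM in males against 6.73, 8.15 and 6.84 in nontargeting males, and at 16.0, 11.9 and 12.4 in females against 4.68, 4.77 and 5.22. Every Chd8 library was above every control library of its sex. The rise was 1.33 ± 0.253 on the log2 scale in males (SE, adjusted p = 0.00018, edgeR) and 1.46 ± 0.256 in females (adjusted p = 5.8e-05), and neither call was lost when any single library was left out.

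After Ash1l shRNA Ntn4 moved the other way. It was at 2.11, 1.67 and 4.13 CPM in males, below all nontargeting males, a log2 change of -1.46 ± 0.262 (adjusted p = 0.00027, edgeR). In females it was at 2.10, 3.11 and 2.91 CPM, also below all controls. The log2 change of -0.85 ± 0.261 against nontargeting females missed the threshold (adjusted p = 0.119, edgeR). It passed with the replicate number as a block (adjusted p = 0.0181). The male and female effects of Ash1l shRNA on Ntn4 differed by -0.61 ± 0.366 (adjusted p = 1.0). Under Kdm6b, Setd5 and Tbr1 shRNA the Ntn4 values of males lay between 3.05 and 4.86 CPM, all under the nontargeting males, without a call. Where replicate numbers pair the libraries, the block called Ntn4 in males for Setd5 (log2 change -0.99, adjusted p = 0.0115, edgeR) and Tbr1 (-0.87, adjusted p = 0.0187). Females without virus had 9.33, 4.84 and 6.34 CPM. With no virus as control the 3 calls of Ntn4 kept their direction and their side of the threshold, and the female Ash1l change was -1.33 ± 0.261 (adjusted p = 0.00165).

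**Figure D3:**
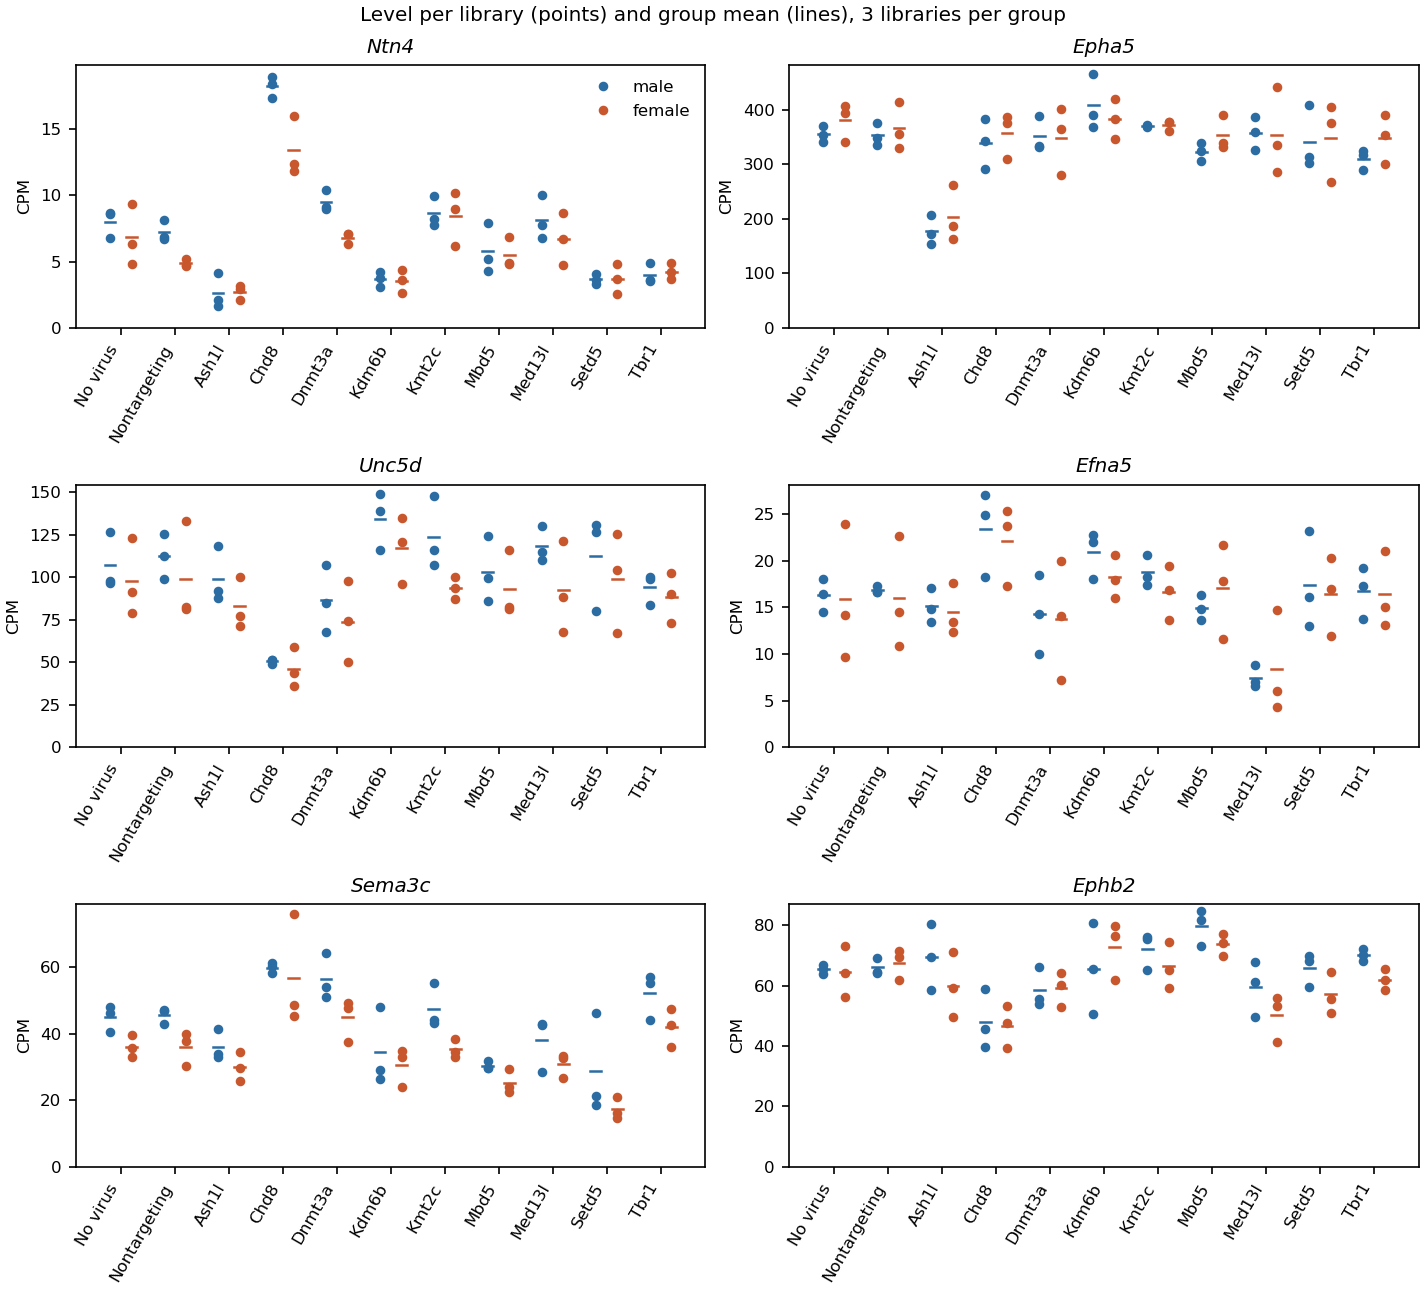
CPM per library (points) and group mean (lines) of Ntn4, Epha5, Unc5d, Efna5, Sema3c and Ephb2 in the 11 conditions, 3 libraries per sex, on axes from 0. Chd8 libraries stand above all others for Ntn4, Ash1l libraries below all others for Epha5, and Chd8 libraries lowest for Unc5d except for 1 female Dnmt3a library at 49.8 CPM.

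The netrin receptors had 2 calls, both of Unc5d after Chd8 shRNA. Unc5d encodes a netrin receptor that also binds FLRT proteins and marks migrating upper-layer cortical neurons. It was at 51.5, 48.9 and 51.5 CPM in Chd8 males against 112, 99.0 and 126 in nontargeting males, and at 43.8, 58.8 and 35.9 in Chd8 females against 82.6, 133 and 81.2. The groups did not overlap in either sex, and the mean was 45.1% and 46.7% of control. The log2 changes were -1.15 ± 0.235 in males (adjusted p = 0.00051, edgeR) and -1.1 ± 0.235 in females (adjusted p = 0.00091), with no call lost without any single library. Med13l shRNA left Unc5d with log2 changes of 0.08 and -0.1, both short of the threshold. The other receptors, Dcc, Unc5a, Unc5b and Unc5c, had no call in the fit with no replicate block.

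Epha5 was the Eph receptor with the clearest response, and Ash1l was the shRNA that called it. It was at 207, 154 and 171 CPM in Ash1l males against 376, 349 and 336 in nontargeting males, and at 162, 262 and 186 in Ash1l females against 354, 414 and 330. Each Ash1l library was below each control of its sex, and the mean was 50.2% and 55.7% of control. The log2 changes were -0.99 ± 0.157 in males (adjusted p = 3.2e-05, edgeR) and -0.85 ± 0.157 in females (adjusted p = 0.00071). Both calls held in every leave-one-out fit, and the male and female effects differed by -0.15 ± 0.22 (adjusted p = 1.0). Markers of GABAergic neurons moved with Ash1l shRNA: their sum was between 660 and 814 CPM in males against 1270 to 1570 in nontargeting males, and between 545 and 833 against 1020 to 1460 in females. Of those 5 markers, 2 (Gad1 and Slc32a1) were called lower in each sex, Gad1 with log2 changes of -1.36 in males and -1.20 in females. Of the 5 excitatory markers 1, Slc17a6, was called higher at 0.97 and 0.94, and their sum was between 871 and 1110 CPM in males against 697 to 794, and between 920 and 1010 against 769 to 904 in females. No marker of another list was called with Ash1l shRNA. The part of this shift in the Epha5 and Ntn4 values was not tested.

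Ephb2, a receptor for B ephrins, was lower after Chd8 shRNA in both sexes. It was at 45.7, 39.6 and 58.8 CPM in males against 64.6, 69.3 and 64.3 in controls, and at 39.3, 53.2 and 47.5 in females against 62.0, 71.4 and 69.5. The groups did not overlap, though the change was modest, with log2 changes of -0.46 ± 0.149 (adjusted p = 0.0379, edgeR) and -0.53 ± 0.150 (adjusted p = 0.0139). The male call was lost, with adjusted p from 0.0776 to 0.237, without nontargeting male replicate 1, 2 or 3 or Chd8 male replicate 1 or 2, and the female call, with adjusted p from 0.0548 to 0.188, without nontargeting female replicate 2 or 3 or Chd8 female replicate 1. Without the filter on low counts the male value was 0.0897. Replicate numbers pair the Chd8 libraries in both sexes. With the block the male and female changes were called (adjusted p = 0.00253 and 0.000729, edgeR), against 22.1% and 21.1% of all genes. Eph A and Eph B receptors other than Epha5 and Ephb2 had no call in the 18 comparisons in the fit with no replicate block.

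Among the ephrins Efna5 was called, lower after Med13l shRNA in both sexes. Efna5 is a repellent ligand of Eph A receptors. In males it was at 6.57, 8.80 and 7.02 CPM against 17.3, 16.6 and 16.7 in nontargeting males. In females it was at 5.99, 14.8 and 4.28 against 14.5, 22.7 and 10.9, and these groups overlapped, although the library of each replicate number was lower than its control. The log2 changes were -1.18 ± 0.322 (adjusted p = 0.0134, edgeR) and -0.95 ± 0.319 (adjusted p = 0.0466). The male call was lost without Med13l male replicate 1 (adjusted p = 0.0812) or 3 (0.0712). The female call was lost, with adjusted p from 0.0568 to 0.385, without nontargeting female replicate 1 or 2 or Med13l female replicate 1 or 3, and when females were fitted alone (0.182) or no low-count filter was used (0.0773). Replicate numbers pair these female libraries, and with the block the female change was called at -1.01 (adjusted p = 0.000302, edgeR). In that fit 27.9% of all genes were called. The B ephrins had no call in the fit with no replicate block.

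The 20 semaphorins took 7 calls, spread over 6 genes. Sema3c, a secreted cue that attracts cortical axons, was called lower after Setd5 shRNA in females and higher after Chd8 shRNA in females. With Setd5 shRNA it was at 16.2, 21.1 and 14.6 CPM in females against 39.8, 37.9 and 30.3 in controls, a log2 change of -1.06 ± 0.222 (adjusted p = 0.00343, edgeR). The groups did not overlap, and without Setd5 female replicate 1, the library with Y-linked reads, the change was -1.02 (adjusted p = 0.0502).

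In males Sema3c was at 46.2 CPM in the library labelled Setd5 male replicate 1, within the nontargeting values of 47.2, 42.8 and 46.8, and at 18.6 and 21.2 in the other male Setd5 libraries. The log2 change of -0.67 ± 0.217 missed the threshold (adjusted p = 0.402, edgeR). Without that library it was -1.20 ± 0.213 (adjusted p = 0.000632), and Sema4g, a transmembrane semaphorin, was then called as well at -0.96 ± 0.250 (adjusted p = 0.0381). In that fit 1.06% of all genes were called, against 0.0557% with all 3 libraries, which called 0 guidance genes. The interaction of sex and Setd5 shRNA for Sema3c was 0.39 ± 0.309 (adjusted p = 1.0) with all libraries.

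Chd8 shRNA gave Sema3c values of 75.9, 48.6 and 45.5 CPM in females, above all controls, with a log2 change of 0.65 ± 0.217 (adjusted p = 0.0448, edgeR). In males they were 58.2, 61.2 and 60.5, also above all controls, with a log2 change of 0.39 ± 0.216 (adjusted p = 0.291). The female call was lost, with adjusted p from 0.0668 to 0.475, without nontargeting female replicate 1, 2 or 3 or Chd8 female replicate 1, and without the low-count filter (0.064). With the block the female call held (adjusted p = 0.0165, edgeR), against 21.1% of all genes. Sema4c and Sema6c, both transmembrane semaphorins, were called higher in Chd8 males. Sema4c was at 39.5, 43.3 and 50.7 CPM against 27.6, 32.6 and 30.5, a log2 change of 0.56 ± 0.152 (adjusted p = 0.0115), and at 0.36 ± 0.152 in females (adjusted p = 0.14, or 0.0277 with the block). Sema6c was at 86.3, 80.0 and 84.8 CPM against 59.4, 65.7 and 52.8, a log2 change of 0.50 ± 0.140 (adjusted p = 0.0139), and at 0.26 ± 0.140 in females (adjusted p = 0.3). The Sema4c call was lost without nontargeting male replicate 1 (0.0684) or Chd8 male replicate 3 (0.102), and the Sema6c call without nontargeting male replicate 3 (0.108) or Chd8 male replicate 1 (0.056). With the block both male calls held (adjusted p = 0.000636 and 0.00114, edgeR), against 22.1% of all genes. Exons of Sema4c overlap those of a gene on the opposite strand, D430040D24Rik, by up to 334 bases, and whether counting used strand is not given in the sources used here.

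After Chd8 shRNA the summed level of mural and fibroblast markers lay between 17.7 and 26.4 CPM in males against 35.1 to 57.1 in nontargeting males, and between 20.2 and 34.1 against 51.3 to 74.1 in females, with none of the 6 markers called. Of the 5 GABAergic markers Gad2 was called lower, at -0.65 and -0.73, and of the 5 neuron markers Syt1, at -0.94 and -0.90. The neuron list summed to between 4280 and 4850 CPM in Chd8 males against 5050 to 5110 in nontargeting males, and to between 4150 and 4490 against 4760 to 5410 in females. Of the 5 excitatory markers Camk2a was called lower in females, at -0.91. Endothelial and microglial markers summed to at most 4.43 and 2.9 CPM in the Chd8 libraries. The part of these shifts in the Chd8 values was not tested.

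Med13l shRNA called Sema6a lower and Sema4f higher in males. Sema6a, a transmembrane semaphorin that is a ligand of Plxna2 and Plxna4, was at 40.8, 45.4 and 36.7 CPM in males against 121, 100 and 135, a log2 change of -1.54 ± 0.445 (adjusted p = 0.0216, edgeR). In females it was at 20.8, 93.9 and 36.6 against 68.0, 167 and 81.6, with overlapping groups and a log2 change of -1.06 ± 0.439 (adjusted p = 0.114), or -1.19 with the block (adjusted p = 8.4e-07). Sema4f was at 81.3, 75.3 and 92.7 CPM in males against 52.1, 52.6 and 55.9, a log2 change of 0.63 ± 0.205 (adjusted p = 0.0438), and at 0.50 ± 0.205 in females (adjusted p = 0.113, or 0.0031 with the block). The Sema6a call was lost without nontargeting male replicate 1 or 3 or Med13l male replicate 1, 2 or 3 (adjusted p from 0.0559 to 0.105). The Sema4f call was lost without any single one of the 6 libraries (0.0516 to 0.189) and without the low-count filter (0.0755).

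Med13l shRNA also called 2 plexins lower in females. Plxna4, the receptor that binds Sema6a and, with neuropilins, Sema3a, was at 44.1, 191 and 112 CPM in Med13l females against 147, 374 and 218, a log2 change of -1.09 ± 0.367 (adjusted p = 0.0462, edgeR). In males it was at 136, 138 and 156 against 269, 298 and 337, with no overlap and a log2 change of -1.07 ± 0.366 (adjusted p = 0.0581). Plxna3, which mediates Sema3 repulsion with neuropilins, was at 73.6, 97.8 and 114 CPM in Med13l females against 128, 130 and 132, a log2 change of -0.45 ± 0.145 (adjusted p = 0.0366), and at -0.22 ± 0.145 in males (adjusted p = 0.417). The Plxna4 call was lost without nontargeting female replicate 2 (0.409) or 3 (0.0617) or Med13l female replicate 1 (0.421) or 3 (0.126), without the 2 male libraries that went against their labels (0.0514), without the low-count filter (0.0905), with females alone (0.209) and with no virus as control (0.0607). The Plxna3 call was lost without any nontargeting female library (0.0628 to 0.101) or Med13l female replicate 1 (0.397), without the low-count filter (0.0704), with females alone (0.136) and with no virus as control (0.143). Replicate numbers pair the female libraries here. With the block both were called in females, Plxna4 at -1.17 (adjusted p = 5.35e-08, edgeR) and Plxna3 at -0.46 (0.0031). In that fit 27.9% of all genes were called. Of the GABAergic markers, Gad1 and Slc32a1 were called lower with Med13l shRNA in males and Slc32a1 in females, and their list summed to between 858 and 1130 CPM in males and between 696 and 1310 in females. Syt1 was called lower at -2.52 and -2.16, with a neuron list sum between 3910 and 4220 CPM in males and between 3560 and 4230 in females, both below all nontargeting libraries of that sex, and the progenitor marker Top2a in males at -2.35. The part of these shifts in the Med13l values was not tested. In the fit with no replicate block the neuropilins, Slits and Robos had no call in any knockdown, with smallest adjusted p of 0.157, 0.338 and 0.263. With the block, where numbers pair the libraries, Slit1 and Slit2 were called in Med13l females (adjusted p = 0.0188 and 0.0156, edgeR). It also called Nrp1 in Ash1l females (0.0104), Nrp2 in Chd8 females (0.0383) and Robo3 in Chd8 males (0.0433). The shares of all genes were 27.9%, 4.43%, 21.1% and 22.1% in these 4 comparisons.

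Sema6b was the other gene called after Setd5 shRNA in females. It was at 37.2, 71.9 and 65.9 CPM against 97.2, 84.2 and 117, with no overlap and a log2 change of -0.77 ± 0.180 (adjusted p = 0.00887, edgeR). It was lost without Setd5 female replicate 1 (-0.53, adjusted p = 0.233) or nontargeting female replicate 3 (-0.65, adjusted p = 0.0805). In males the values were 96.3 CPM in the library labelled Setd5 male replicate 1, which went against its label, and 81.0 and 87.6 in the others, against 100, 109 and 108, a log2 change of -0.26 ± 0.179 (adjusted p = 1.0). Of all guidance genes Sema6b had the smallest unadjusted p for a sex difference under Setd5 shRNA, 0.0492, with a male minus female effect of 0.51 ± 0.253, and both it and the next gene had an adjusted p of 1.0 by edgeR. The next was Unc5a, a netrin receptor, at 0.64 ± 0.354 (unadjusted p = 0.0774), with 36.8 CPM in the library labelled Setd5 male replicate 1, 41.1 and 46.5 in the other Setd5 males, 18.1 in Setd5 female replicate 1, the library with Y-linked reads, and 31.1 and 34.5 in the other Setd5 females, against 32.4, 44.3 and 37.4 and 39.5, 31.1 and 48.4 in nontargeting males and females. Without Setd5 female replicate 1 the sex difference was 0.28 for Sema6b and 0.41 for Unc5a (unadjusted p = 0.257 and 0.266, edgeR), and without the library labelled Setd5 male replicate 1 it was 0.45 and 0.72 (unadjusted p = 0.104 and 0.0615), with an adjusted p of 1.0 in each case. One of the 5 GABAergic markers, Slc32a1, was called lower in Setd5 females at -1.04, with a list sum between 967 and 1390 CPM. Mural and fibroblast markers summed to between 34.1 and 38.7 CPM in Setd5 females against 51.3 to 74.1 in nontargeting females, and excitatory markers to between 914 and 1000 against 769 to 904, with none of these markers called. The part of these shifts in the Sema3c and Sema6b values was not tested.

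The remaining 5 knockdowns called no guidance gene in the fit over all 66 libraries with no replicate block. Under Dnmt3a shRNA Sema5a, a transmembrane semaphorin, ranked first in both sexes. It was at 21.6, 22.7 and 33.8 CPM in males against 46.7, 37.8 and 49.8, and at 17.3, 30.0 and 12.4 in females against 29.4, 44.2 and 27.7. The log2 changes were -0.78 ± 0.221 and -0.75 ± 0.222 (adjusted p = 0.279 and 0.325, edgeR), and with the replicate block both were called (0.00487 and 0.00736) against backgrounds of 1.46% and 1.29%. With males fitted alone Sema5a was called as well (adjusted p = 0.0275, edgeR), against 0.797% of all genes. Without Dnmt3a female replicate 2 the female change was -1.17 (adjusted p = 0.00649) with no block. Astrocyte markers summed to between 144 and 175 CPM in Dnmt3a males against 65.9 to 119 in nontargeting males, and their part in the Sema5a values was not tested.

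Unc5b, a netrin receptor also known from blood vessels, led under Kdm6b shRNA. In males it was at 13.1 CPM in the library labelled Kdm6b male replicate 1, and at 6.64 and 7.42 in the others, against 17.1, 18.3 and 17.0. The log2 change of -0.95 ± 0.264 (adjusted p = 0.153, edgeR) became -1.31 ± 0.292 (adjusted p = 0.0411) without that library, with 0.109% of all genes called, and with males fitted alone it was -0.95 (adjusted p = 0.033), with 1.28% of all genes called. In females it was at 6.10, 6.80 and 13.0 CPM against 13.1, 13.7 and 19.4, a log2 change of -0.83 ± 0.265 (adjusted p = 0.856), and without Kdm6b female replicate 3 it was -1.26 (adjusted p = 0.0356).

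Under Kmt2c shRNA Sema6d, a ligand of Plxna1, was at 45.6, 38.4 and 41.0 CPM in males against 59.9, 52.3 and 55.3 and at 41.3, 34.6 and 32.3 in females against 54.6, 63.9 and 41.7. Neither sex overlapped its controls, and the log2 changes of -0.42 ± 0.221 and -0.57 ± 0.222 missed the threshold (adjusted p = 1.0 and 0.684, edgeR). Under Mbd5 shRNA Sema3c was at 29.6, 31.7 and 29.8 CPM in males and 23.9, 29.4 and 22.4 in females, again below all controls, with log2 changes of -0.59 ± 0.217 and -0.51 ± 0.217 (adjusted p = 0.831 and 1.0). Under Tbr1 shRNA Sema3a, the classic repellent of cortical axons, and Sema3d tied for first rank. Sema3d was at 7.57, 6.55 and 3.85 CPM in males against 12.9, 14.2 and 8.62 and at 4.11, 4.21 and 4.86 in females against 8.38, 5.70 and 9.29. Its log2 changes of -0.99 ± 0.385 and -0.82 ± 0.389 missed the threshold (adjusted p = 0.663 and 1.0), although the male change was called with the block (0.00309). Sema3a was at 31.0, 34.4 and 28.1 CPM in males against 38.1, 42.5 and 41.2, and at 27.5, 41.1 and 24.5 in females against 35.2, 48.8 and 36.6. It had log2 changes of -0.38 ± 0.171 in each sex (adjusted p = 0.889 and 1.0).

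Neither virus nor sex gave a call of a guidance gene. Nontargeting against no virus gave 0.0% of all genes called in each sex, and 0 guidance genes at an unadjusted p under 0.05. The share of all genes under that unadjusted limit is not given here, for this or the later counts. The guidance genes with the smallest p were Efna4 in males, with a log2 change of 0.83 ± 0.539 (unadjusted p = 0.131), and Sema3f (-0.29 ± 0.27, unadjusted p = 0.291), and in females Ntn4 (-0.48 ± 0.255, unadjusted p = 0.0669) and Sema6c (0.16 ± 0.14, unadjusted p = 0.247), all from edgeR with an adjusted p of 1.0. Efna4, an A ephrin, was at 0.343, 0.949 and 0.778 CPM in nontargeting males against 0.412, 0.393 and 0.370 without virus, and Sema3f, a secreted repellent, at 11.3, 15.9 and 13.1 against 17.4, 18.3 and 13.6. These groups overlapped. Male against female nontargeting cultures called 0.0434% of all genes and no guidance gene by edgeR, with 1 guidance gene at an unadjusted p under 0.05. By DESeq2 the count for virus and for sex was also 0. The test of a sex difference in the response, by edgeR or DESeq2, called no guidance gene for any of the 9 targets, with 0.0% of all genes called for 8 of them and 0.0186% for Setd5, where 1 guidance gene had an unadjusted p under 0.05 against 0 for each other target.

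A direct comparison of the pair of shRNAs with most calls, Chd8 against Med13l, which shares no control between its arms, called 11 guidance genes in males (9 higher with Chd8 shRNA, 2 lower) and 11 in females (8 higher, 3 lower). The share of all genes called was 19.4% and 21.9%, against 16.7% of the guidance genes in each sex. Of the 11 genes 9 were called in both sexes and in the same direction, 81.8% of each list. That overlap was not computed over all called genes, so it cannot be called particular to guidance genes. Efna5, Ntn4, Sema3c, Sema5a, Plxna1, Ephb1 and Epha7 were higher with Chd8 shRNA, and Unc5d and Epha8 lower. The median log2 difference over the 66 tested guidance genes was 0.24 in males and 0.27 in females, where the median over all genes was 0.01 and -0.01. Over all genes spanning more than 100 kb it was 0.16 and 0.22, and values by span are given at the end.

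Efna5 differed most among the genes called in both sexes, at 18.3, 24.9 and 27.0 CPM with Chd8 shRNA in males and 23.7, 25.4 and 17.3 in females, against the Med13l values given above. The log2 differences were 1.65 ± 0.324 (adjusted p = 0.00013, edgeR) and 1.41 ± 0.321 (adjusted p = 0.00085). Unc5d differed by -1.23 ± 0.235 and -1.0 ± 0.234 (adjusted p = 9.5e-05 and 0.00116), and Ntn4 by 1.16 ± 0.252 and 1.0 ± 0.253 (adjusted p = 0.00053 and 0.00251). These 3 genes kept their call in both sexes in every leave-one-out fit. Ephb1, a receptor for B ephrins, was at 28.4, 25.9 and 36.4 CPM in Chd8 males against 20.9, 19.2 and 22.9 in Med13l males, and at 42.3, 28.3 and 28.7 against 22.2, 18.7 and 22.4 in females, with log2 differences of 0.52 ± 0.143 and 0.64 ± 0.143 (adjusted p = 0.00594 and 0.00063). Its groups did not overlap, and the male call was lost without Chd8 male replicate 3 (0.124). Exons of Ephb1 overlap those of Gm26846 on the opposite strand by up to 152 bases. Other called genes with exon overlaps on the opposite strand were Plxna1 (Gm26811, up to 191 bases), Efna3 (Gm15998, 149) and Plxna4 (Plxna4os3, 110).

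Plxna1, a receptor for Sema3 cues and Sema6d, was at 289, 260 and 427 CPM in Chd8 males against 204, 185 and 229 in Med13l males, and at 240, 264 and 270 against 92.8, 176 and 165 in females. Its log2 differences were 0.66 ± 0.237 and 0.84 ± 0.237 (adjusted p = 0.0409 and 0.00738, edgeR). The groups did not overlap. The male call was lost without Chd8 male replicate 3 (0.33) or any Med13l male library (0.0559 to 0.151) and without the low-count filter (0.0529), and the female call without Med13l female replicate 1 (0.121). Sema3c and Sema5a completed the semaphorins called in both sexes, with log2 differences of 0.66 and 0.87 and of 0.70 and 0.73. Of the Eph A receptors Epha7 had log2 differences of 0.46 and 0.45 and Epha8 of -0.96 and -1.09. In females Epha8 was at 15.7, 8.77 and 14.1 CPM with Chd8 shRNA and at 37.8, 14.7 and 29.7 with Med13l shRNA, which overlapped, and the other 8 genes did not overlap in either sex.

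Each of these 4 genes also lost its call without at least 1 library. Sema3c lost the male call without Chd8 male replicate 1, 2 or 3 or Med13l male replicate 1 (adjusted p from 0.0501 to 0.194, edgeR) and the female call without Chd8 female replicate 1 (0.0669). Sema5a lost the male call without Chd8 male replicate 1 or 3 or Med13l male replicate 1 or 2 (0.0513 to 0.0904) and the female call without Chd8 female replicate 1 (0.0507) or Med13l female replicate 1 (0.141). Epha7 lost the male call without Chd8 male replicate 1 or 2 or any Med13l male library (0.0756 to 0.185) and the female call without Chd8 female replicate 1 or 2 or Med13l female replicate 1 or 3 (0.0803 to 0.17), without the low-count filter (0.0606) or with females alone (0.0819). Epha8, which encodes an Eph A receptor, lost the male call without any of the 6 male libraries (0.0704 to 0.169) or the low-count filter (0.0893) and the female call without Chd8 female replicate 2 (0.131) or Med13l female replicate 1 (0.201) or 3 (0.0648), or with females alone (0.0962). With the replicate block these 4 genes, Plxna1 and Ephb1 were called in both sexes, against 34.5% of all genes in males and 38.6% in females.

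In males alone Robo3 (log2 difference 1.45 ± 0.497, adjusted p = 0.0315, edgeR) and Sema6c (0.39 ± 0.140, adjusted p = 0.0407) were called higher with Chd8 shRNA. The female differences were 1.18 ± 0.498 (adjusted p = 0.0813) and 0.37 ± 0.140 (adjusted p = 0.052). Robo3 was low throughout, at 2.14, 2.5 and 2.33 CPM with Chd8 shRNA and 1.27, 0.775 and 0.499 with Med13l shRNA in males. In females alone Nrp2 was higher (0.43 ± 0.157, adjusted p = 0.0414) and Efna3 lower (-0.77 ± 0.264, adjusted p = 0.0282), with male differences of 0.25 ± 0.156 and -0.56 ± 0.264 (adjusted p = 0.28 and 0.135). Nrp2 was at 237, 161 and 172 CPM with Chd8 shRNA and 131, 138 and 154 with Med13l shRNA, and Efna3 at 42.7, 33 and 51.2 and 97.1, 38.9 and 80.8, the latter overlapping. Robo3 lost its call without Chd8 male replicate 1, 2 or 3 or Med13l male replicate 2 or 3 (0.0528 to 0.165), and Sema6c without any of the 6 male libraries (0.0572 to 0.114) or the low-count filter (0.0529). Nrp2 lost its call without Chd8 female replicate 1 (0.361) or Med13l female replicate 1 (0.174) or 2 (0.0784), without the low-count filter (0.0606) or with females alone (0.111), and Efna3 without Chd8 female replicate 1 (0.0702) or 2 (0.144) or Med13l female replicate 1 (0.276) or 3 (0.0936), or with females alone (0.136). With the replicate block, where the numbers pair the libraries in both sexes, Robo3 and Sema6c were called in females too (adjusted p = 0.013 and 0.0116, edgeR) and Efna3 in males (0.00133), while Nrp2 in males was not (0.113). Whether the difference itself varied between the sexes was not tested.

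**Figure D4:**
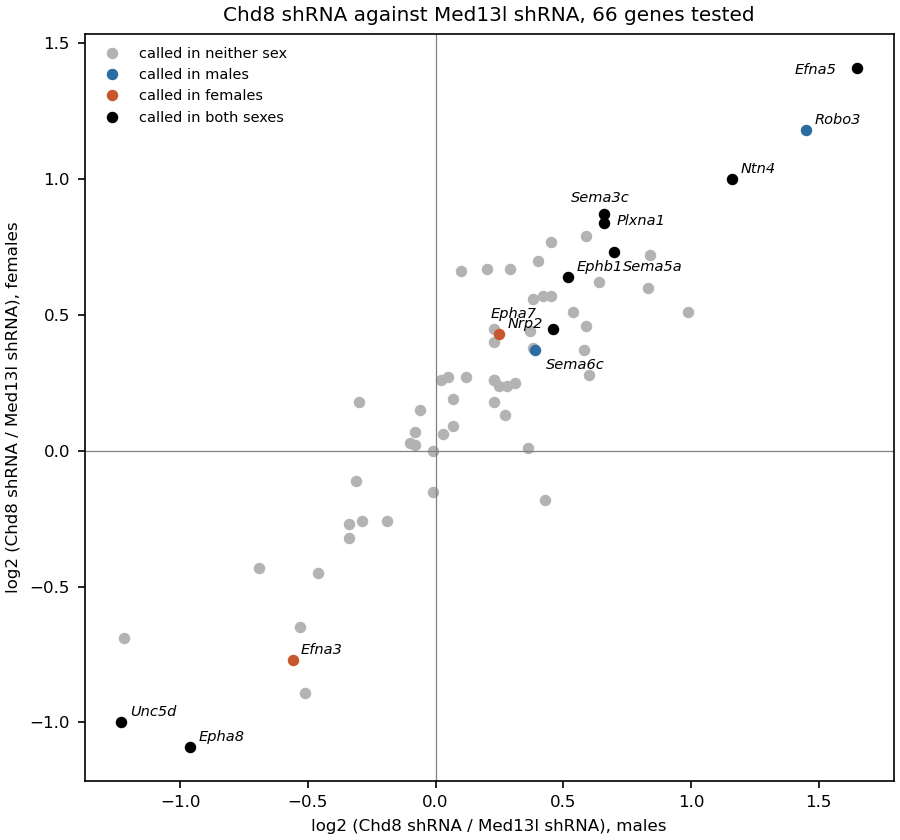
Log2 ratio of Chd8 shRNA over Med13l shRNA in males (x axis) and females (y axis) for the 66 tested guidance genes, one point per gene, coloured by the sex in which it was called. The 9 genes called in both sexes include Efna5 and Ntn4 at the upper right and Unc5d and Epha8 at the lower left.

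The replicate number carried much of the variation of these genes, above all in female cultures. Within a sex, the share of the sum of squares of log2 CPM that lay between replicate numbers had a median of 33.7% over the 66 guidance genes in females and 11.9% in males, where the medians over all genes were 25.4% and 8.36%. The share between the 11 conditions had a median of 36.0% and 53.8%, close to the 38.1% and 52.1% of all genes. More than 50% of the female variation lay between replicate numbers for 22 guidance genes, or 33.3%, and for 23.2% of all genes. What a replicate number stands for (a litter, day or plate) is not given in the labels.

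Ntn1, the founding netrin, varied most with the number, which took 82.6% of its variation over both sexes. It lay between 17.9 and 33.7 CPM in the 11 female libraries of replicate 1, between 4.79 and 7.92 in those of replicate 2 and between 7.45 and 14.1 in those of replicate 3. The ranges did not overlap between replicate 1 and the others, whatever the shRNA. Its receptor Dcc ran in the other direction, with a range of 9.89 to 36.0 CPM in female replicate 1, 37.5 to 120 in replicate 2 and 27.8 to 66.6 in replicate 3. The lowest replicate 2 value, 37.5, was that of the library labelled Kmt2c female replicate 2, and the other 10 lay between 64.8 and 120.

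Sema3e (77.5% between replicate numbers over both sexes) and Sema7a (75.5%) came next. Sema3e, the ligand of Plxnd1, lay between 9.79 and 18.3 CPM in female replicate 1, between 52.0 and 75.9 in replicate 2 and between 18.9 and 51.5 in replicate 3. Sema7a lay between 45.2 and 90.5, between 146 and 228 and between 90.7 and 144 CPM. Neither overlapped between the 3 female numbers. In males the 3 numbers overlapped for both genes. The genes that followed the condition instead were Ntn4 (88.3% of its variation between conditions), Sema3c (76.4%) and Epha5 (76.1%). Astrocyte markers summed to a mean of 158 CPM in female replicate 1 (range 106 to 305), 90.1 in replicate 2 (41.5 to 113) and 98.5 in replicate 3 (55.7 to 129), and progenitor markers to 46.3, 24.5 and 26.2, and their part in these differences was not tested.

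**Figure D5:**
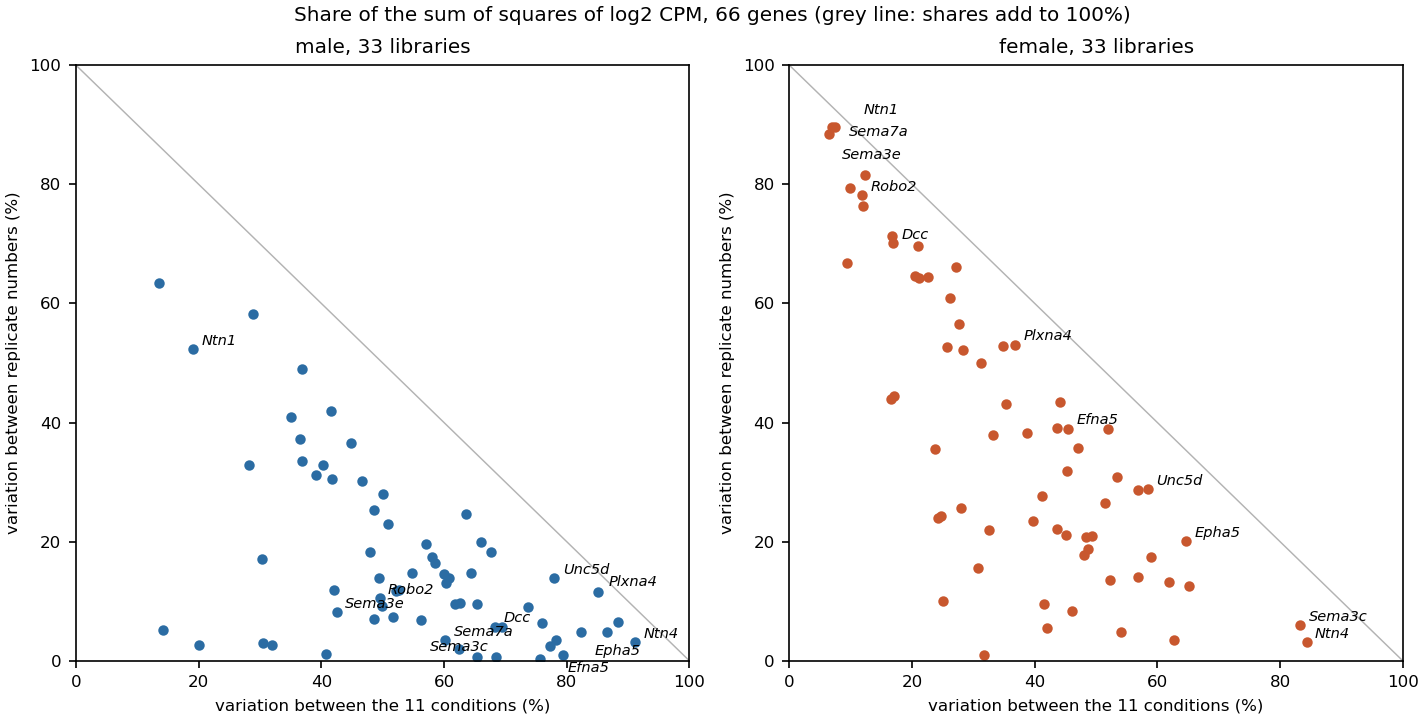
Share of each gene's variation between the 11 conditions (x axis, %) and between replicate numbers (y axis, %), for males (left) and females (right), one point per guidance gene. Ntn1, Sema3e and Sema7a lie near the top left in females, and Ntn4 and Sema3c at the lower right in both panels.

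Fitting the replicate number as a block raised the number of guidance genes called in most comparisons where the numbers pair the libraries. It stayed at 0 for Kmt2c in both sexes (against 0.434% of all genes in males and 1.09% in females), Mbd5 in females (0.458%) and Tbr1 in females (0.898%). Chd8 shRNA then called 15 guidance genes in males (8 higher, 7 lower, against 22.1% of all genes) and 15 in females (6 higher, 9 lower, against 21.1%), of which 11 were shared and moved the same way, 73.3% of each list. Beside Ntn4, Unc5d, Ephb2 and Sema4c these were Epha4 and Epha7 higher and Efnb1, Epha10, Plxna4, Plxnd1 and Sema6a lower. The overlap between the sexes was not computed over all called genes. Med13l shRNA called 19 in females (2 higher, 17 lower, against 27.9%), among them the netrin receptors Dcc, Unc5a and Unc5c with log2 changes of -0.93, -0.71 and -0.93, and Slit1 and Slit2 at -0.36 and -0.70. Ash1l shRNA called 6 in females (1 higher, 5 lower, against 4.43%), namely Epha4, Epha5, Nrp1, Ntn4 and Unc5c lower and Efnb2 higher. Setd5 shRNA called 9 in females (1 higher, 8 lower, against 13.0%) and 2 in males, Ntn4 and Sema4g, both lower (against 1.06%). Mbd5 shRNA called Unc5c in males at -0.87 (against 0.979%), and Tbr1 shRNA called Ntn4 and Sema3d in males, both lower (against 1.75%). In the direct comparison of Chd8 with Med13l the block called 24 in males (18 higher, 6 lower, against 34.5%) and 32 in females (27 higher, 5 lower, against 38.6%).

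Other genes of the guidance pathways, a list of 105 co-receptors, ligands of other systems and cytoplasmic effectors of which 104 were tested, moved mainly after Chd8 and Med13l shRNA. Of them, 16 passed the test after Chd8 shRNA in males (4 up, 12 down) and 13 in females (4 up, 9 down), or 15.4% and 12.5%, where 9.82% and 9.33% of all genes were called. Med13l shRNA called 12 in males (1 higher, 11 lower) and 13 in females (all lower), or 11.5% and 12.5%, beside 8.06% and 10.2% of all genes. Their medians were -0.02 in each sex for Chd8 and -0.18 and -0.22 for Med13l. Ash1l shRNA called 3 in males, all lower, or 2.88% against 1.98% of all genes. Setd5 shRNA called 6 in females (2 higher, 4 lower), or 5.77% against 3.12%, and Tbr1 shRNA 1 in males, lower, or 0.962% against 0.217%. No other knockdown comparison called any.

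After Chd8 shRNA 11 of these genes were called in both sexes. Draxin, a secreted repellent that binds Dcc, rose, with log2 changes of 1.97 ± 0.422 in males and 1.75 ± 0.420 in females (adjusted p = 0.000903 and 0.00361, edgeR). Neo1, a receptor for netrins and RGM proteins related to Dcc, fell, with log2 changes of -1.18 ± 0.182 and -1.12 ± 0.182 (adjusted p = 5.44e-06 and 1.42e-05). Fzd3, a Frizzled receptor needed for major axon tracts, fell, with -1.83 ± 0.351 and -1.69 ± 0.349 (adjusted p = 0.000206 and 0.000644). Chn2 and Rasa1, which inactivate small GTPases, were also higher, and Ablim3, Dpysl2, Dpysl3, Dscaml1, Pak2 and Sdcbp lower. Dpysl2 and Dpysl3 encode CRMP proteins that act downstream of Sema3a, and Sdcbp encodes syntenin, which binds the tails of B ephrins.

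After Med13l shRNA 8 genes of the list were called in both sexes, all lower. Wnt5a, a ligand that repels axons through Ryk, fell, with log2 changes of -1.34 ± 0.356 and -1.59 ± 0.360 (adjusted p = 0.0102 and 0.00205, edgeR). Neo1 fell, with -0.57 ± 0.180 and -0.73 ± 0.180 (adjusted p = 0.0395 and 0.00491). The adhesion molecules Cntn1 and Nfasc, the RGM family member Rgmb, the kinase Abl1, the actin-binding Ablim3 and Srgap2, a GTPase-activating partner of Robos, were the others. Ablim3 and Neo1 were thus called lower after both shRNAs, which share their control libraries.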

How the data were processed

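RNA sequencing libraries of cultured mouse neurons were compared between shRNA groups. The authors deposited one table of raw counts per gene. STAR, featureCounts and mm10 are named in the submitters' processing notes without versions, and the library kit was TruSeq Stranded mRNA per the labels' protocols. The counting annotation and strand setting are not given in the sources used here. Columns named Luc were taken as the nontargeting group, which no other column name fits. Of 72 library columns, 6 belonged to no sample analysed here and were not used. Of 48716 rows, 18483 without a symbol (0.69% to 1.41% of counts) were left out, and 149 that repeated a symbol were summed. Counts from 1 to 20 were odd in 26.7% of cases, against 49.1% of those of at least 1000, and the cause was not tested. Depth was 13759741 to 66558546 counts per library. Counting error is larger for genes with few reads.

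The tests used edgeR 4.0.16 under R 4.3.3. Genes kept by filterByExpr (16145) were scaled by TMM (factors 0.874 to 1.06) and tested with the robust quasi-likelihood F test with one mean per group over all 66 libraries. Each comparison had its own Benjamini-Hochberg adjustment over the 16145 genes, and a call means an adjusted p under 0.05. CPM use TMM-scaled library sizes, and log2 CPM had a prior count of 2. CPM per kb divides by the union of exons in GENCODE M21 on GRCm38. The test was also run on simulated counts with known changes in Chd8 males. Those counts held no effect of replicate number, so they do not check the test against the replicate differences described above. Alternatives were DESeq2 1.42.0, no low-count filter, each sex fitted alone, no virus as control, a replicate block and each library left out. The samples share replicate numbers across groups in the labels, and the number was taken to pair libraries where the correlation of deviations from the group means was over 0.1 in every pair. It was in 8 of 9 female knockdowns (not Kdm6b) and in 6 of 9 male knockdowns (not Ash1l, Kdm6b and Med13l), and in both sexes for no virus with nontargeting and for Chd8 with Med13l. Variation was split by a two-way sum of squares within each sex.

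Guidance genes and lists were chosen with earlier results of these data known. Values per library are given for genes called in both sexes after one shRNA, genes called in 3 or more comparisons, the gene with the lowest summed p rank in each other knockdown, the most abundant gene of each class, and the 2 genes with the smallest p for virus and for a sex difference with any call. Genes called in 1 sex are given with both sexes' changes, and other genes of the pathway are named where called in both sexes. The values per library of further called genes were added after they were seen.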

Additional observations from a re-analysis of the deposited data

How the results depend on the processing

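The number of guidance genes called depended on how the replicate number and the sexes entered the fit. With the replicate number as a block (replicate block), males gave 9 for Ash1l, 15 for Chd8, 1 for Dnmt3a, 4 for Kdm6b, 1 for Mbd5, 10 for Med13l, 2 for Setd5 and 2 for Tbr1, females gave 6 for Ash1l, 15 for Chd8, 1 for Dnmt3a, 19 for Med13l and 9 for Setd5, and the direct comparison of Chd8 with Med13l gave 24 in males and 32 in females. The numbers pair the libraries in neither sex for Kdm6b and not in males for Ash1l and Med13l. For these the share of all genes called with the block is not given here. The male block counts of Ash1l, Kdm6b and Med13l therefore stand here without a background and are no result about the guidance genes. No paired analysis was possible for nontargeting males against females because their numbers lie within 1 sex. With each sex fitted separately, males gave 7 for Ash1l (with 5.96% of all genes called in the same fit), 12 for Chd8 (18.5%), 1 for Dnmt3a (0.797%), 3 for Kdm6b (1.28%), 1 for Mbd5 (0.593%) and 10 for Med13l (19.6%), Med13l in females gave 0 (4.71%), and the direct comparison gave 22 in males (31.0%) and 7 in females (15.0%). DESeq2 gave 1 for Kdm6b in males (0.345%) and 5 for Med13l in each sex (6.9% in males and 8.71% in females). Without the low-count filter Med13l in females gave 0 (5.23%), and with no virus as control Ash1l in females gave 2. Without Setd5 male replicate 1 and Kdm6b male replicate 1 together, an alternative chosen after seeing the data, Kdm6b gave 1 and Setd5 gave 2 in males. The share of all genes called is not given here for this alternative or for no virus as control.

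Leaving out 1 library at a time, males gave 3 to 5 for Chd8, 0 to 1 for Kdm6b, 0 to 2 for Med13l and 0 to 2 for Setd5, females gave 1 to 2 for Ash1l, 2 to 5 for Chd8, 0 to 1 for Dnmt3a, 0 to 1 for Kdm6b, 0 to 10 for Med13l and 0 to 6 for Setd5, and the direct comparison gave 5 to 7 in males and 6 to 19 in females. For most of these refits the share of all genes called is not given here. For Setd5 males it went from 0.0557% to 1.06% without the library labelled Setd5 male replicate 1. For Kdm6b males it went from 0.0867% to 0.109% without the library labelled Kdm6b male replicate 1. The ranges are therefore no result about the guidance genes alone. Over all alternatives 349 counts were within 1.5 times the main count and 64 were not. For single genes named above, 508 values kept their direction and side of the threshold, 118 lost the call, 12 gained one and none changed sign. Depth limits the genes with few reads, such as Robo4 and Sema3g, whose changes had wide errors.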

Other observations

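Guidance genes are long: the median genomic span of the tested ones was 62.8 kb, against 23.6 kb over the 15737 of 16145 tested genes with a span. The split at 100 kb used here was chosen after the data were seen, and the values are a description with no test. With Med13l shRNA in females the 32 guidance genes over 100 kb had a median log2 change of -0.31 and the 34 shorter ones -0.11, where the medians of all longer and shorter genes were -0.19 and 0.04. In males these values were -0.08 and -0.02 for guidance genes and -0.13 and 0.01 for all genes. With Chd8 shRNA the longer guidance genes had medians of 0.17 in males and 0.18 in females and the shorter ones -0.02 and -0.06, where all longer genes had 0.03 and 0.02. In the direct comparison of Chd8 with Med13l the longer guidance genes had medians of 0.38 in males and 0.56 in females. The shorter guidance genes had 0.1 and 0.09 there. All longer genes had 0.16 and 0.22, and all shorter ones -0.01 and -0.04. The part of gene span in these medians was not tested.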
